A study of Homo sapiens with 8 samples.

Results

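NRF2 is the transcription factor through which human cells answer oxidants and reactive chemicals. Here the mRNA levels of 9 genes of this pathway were followed in LM2 cells, a lung-metastatic derivative of the triple-negative human breast cancer line MDA-MB-231. The 9 genes were NFE2L2, which encodes NRF2 itself, KEAP1, its cytoplasmic sensor, and the target genes HMOX1, NQO1, GCLM, GCLC, TXNRD1, SRXN1 and OSGIN1. They were matched by symbol, with earlier results of these data known, and all 9 were found among the 58688 genes of the count files. The series held 8 RNA-seq samples of these cells, grown in DMEM with serum. In the drug experiment, 2 samples received DMSO, the solvent, and 2 received Ponatinib at 1 µM for 6 h. Ponatinib is a leukemia drug that inhibits the ABL kinases and several other tyrosine kinases. In the shRNA experiment, stable lines were made by lentivirus, and the series held 1 sample each of a scrambled shRNA control (shCtrl), ABL1 shRNA, ABL2 shRNA and ABL1/ABL2 shRNA. All 4 shRNA samples had therefore been through viral infection, and the DMSO and Ponatinib samples had not, so levels were compared within an experiment and never across the experiments. The drug comparison asked what the kinase inhibitor did to the cells' mRNA, and the knockdowns asked how much of it followed loss of ABL1, ABL2 or both.

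In unstressed cells KEAP1 binds NRF2 and presents it to a CUL3 ubiquitin ligase, which keeps the protein short-lived. Oxidants and electrophiles modify KEAP1, NRF2 then accumulates in the nucleus, pairs with a small MAF protein and binds the antioxidant response element. BACH1 competes for the same element and represses HMOX1 in particular. Much of this regulation acts on the NRF2 protein, which mRNA counts do not measure.

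The samples carried between 7568934 and 13010896 counts assigned to genes, and 3 counts corresponded to between 0.231 and 0.396 CPM, the counts of a gene scaled to the sample's total. The DMSO repeats differed by 1.4 times the chi-square that counting alone gives per degree of freedom, and the Ponatinib repeats by 2.92 times. VIM, a mesenchymal marker of this cell line, lay between 1882 and 3145 normalized CPM in all 8 samples. CD44 and KRT18 were present in all samples at 144 CPM or more, and ERBB2 lay between 53.7 and 67.0. After Ponatinib, CD44 and KRT18 fell by 0.41 and 0.55 on the log2 scale and ERBB2 rose by 0.22. PGR had no count in any sample, ESR1 and CDH1 stayed under 2 CPM, and PTPRC and ALB, markers of leukocytes and liver cells, had at most 3 counts. PECAM1, an endothelial marker, lay between 2.34 and 3.99 normalized CPM in the drug experiment, at 20.5 in shCtrl and between 30.8 and 39.8 in the 3 knockdowns. Its part in the results below was not tested. A name cell inside the data of the shCtrl sample reads as ABL1 shRNA, and the one inside the ABL1 shRNA sample reads as the negative control. The samples were used as the GEO labels give them. ABL1 stood at 73.1 normalized CPM in the sample labelled ABL1 shRNA and at 190 in shCtrl, which goes with the labels and not with the name cells.

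The antioxidant response element has the core letters TGACNNNGC, or GCNNNGTCA when it lies on the other strand. These letters were looked for in windows from 250 bases before to 50 bases after the RefSeq transcription starts (GRCh38.p14). Windows were given for 8 of the 9 genes, 11 windows in all, and HMOX1 had none. The core occurred in windows of 3 genes, GCLM, TXNRD1 and KEAP1, and in 13.3% of all 35116 windows in the genome. In GCLM it began 34 bases before the start. TXNRD1 had matches beginning 99 and 8 bases before its upstream start and 102 bases before its downstream start, and KEAP1 had matches beginning 54 and 31 bases before its downstream start. OSGIN1 held instead the AP-1 letters TGACTCA, which on either strand occur in 4.9% of all windows, beginning 97 bases before its start. A match is a description of the letters and not a measured site. The 120 bases before the start, plus the start base, are shown for GCLM, TXNRD1 (upstream start) and OSGIN1. These were windows with a match in which few of the bases shown lay in annotated exons. They read 5′ to 3′ on the gene's strand, with the matched letters in capitals.
GCLM (chr1:93909430-93909550, minus strand): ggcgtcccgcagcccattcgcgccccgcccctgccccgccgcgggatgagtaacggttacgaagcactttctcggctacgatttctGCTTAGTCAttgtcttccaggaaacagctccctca
TXNRD1 (chr12:104215659-104215779, plus strand): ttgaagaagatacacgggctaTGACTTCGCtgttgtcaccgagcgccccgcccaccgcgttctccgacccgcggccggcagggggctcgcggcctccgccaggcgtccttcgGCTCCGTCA
OSGIN1 (chr16:83953120-83953240, plus strand): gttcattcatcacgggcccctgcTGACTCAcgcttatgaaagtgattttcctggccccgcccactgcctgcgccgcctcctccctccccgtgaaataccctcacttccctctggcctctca
No match was found in the windows of NFE2L2, GCLC, NQO1 and SRXN1, which says only that these letters were not in these windows.

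In DMSO the 9 genes spanned a wide range of levels. Per kilobase of exon, NQO1, a quinone reductase, stood first, at 207 normalized CPM (mean of 2 samples). TXNRD1, the cytosolic thioredoxin reductase, followed at 108, KEAP1 at 33.0, GCLM at 17.6 and NFE2L2 at 7.23. HMOX1 at 5.28 and GCLC at 4.91 overlapped between the repeats. OSGIN1 at 2.87 and SRXN1 at 1.04 came last. The lengths were taken from GENCODE v44, whose gene models can differ from those the authors counted on. SRXN1, which encodes sulfiredoxin, had 15 to 33 counts in a sample, and 90.7% of its exon bases in this annotation are shared with a read-through gene on the same strand, ENSG00000270299, which had at most 1 count. Its level is therefore uncertain. NFE2L2 shares 38.4% of its exon bases with another gene, NQO1 19.4%, GCLC 9.7% and OSGIN1 8.2%, and the other 4 genes share none. How strand and shared bases were treated in counting is not given in the sources used here.

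After 6 h of Ponatinib, 6 of the 9 genes rose and none fell in edgeR's quasi-likelihood test at an adjusted p under 0.05. Over all 16031 genes tested, 15% rose, 15.7% fell and 30.7% were called in either direction. HMOX1 rose most among the 9, followed by GCLC, OSGIN1, TXNRD1, NFE2L2 and GCLM. NQO1, KEAP1 and SRXN1 did not pass the test. The median log2 fold change of the 9 genes was 0.57, beside -0.0047 over all genes tested. The study's own rule asks for more than a 2-fold change with P under 0.05 before adjustment. HMOX1 met it, as 1 of the 9 genes, and so did 5.48% of all genes tested. These are results of the fit made here, and the study reported fewer genes by its rule. The RNA came from whole cultures, so a change per cell and a change in the share of cells carrying a transcript cannot be told apart.

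**Figure D1:**
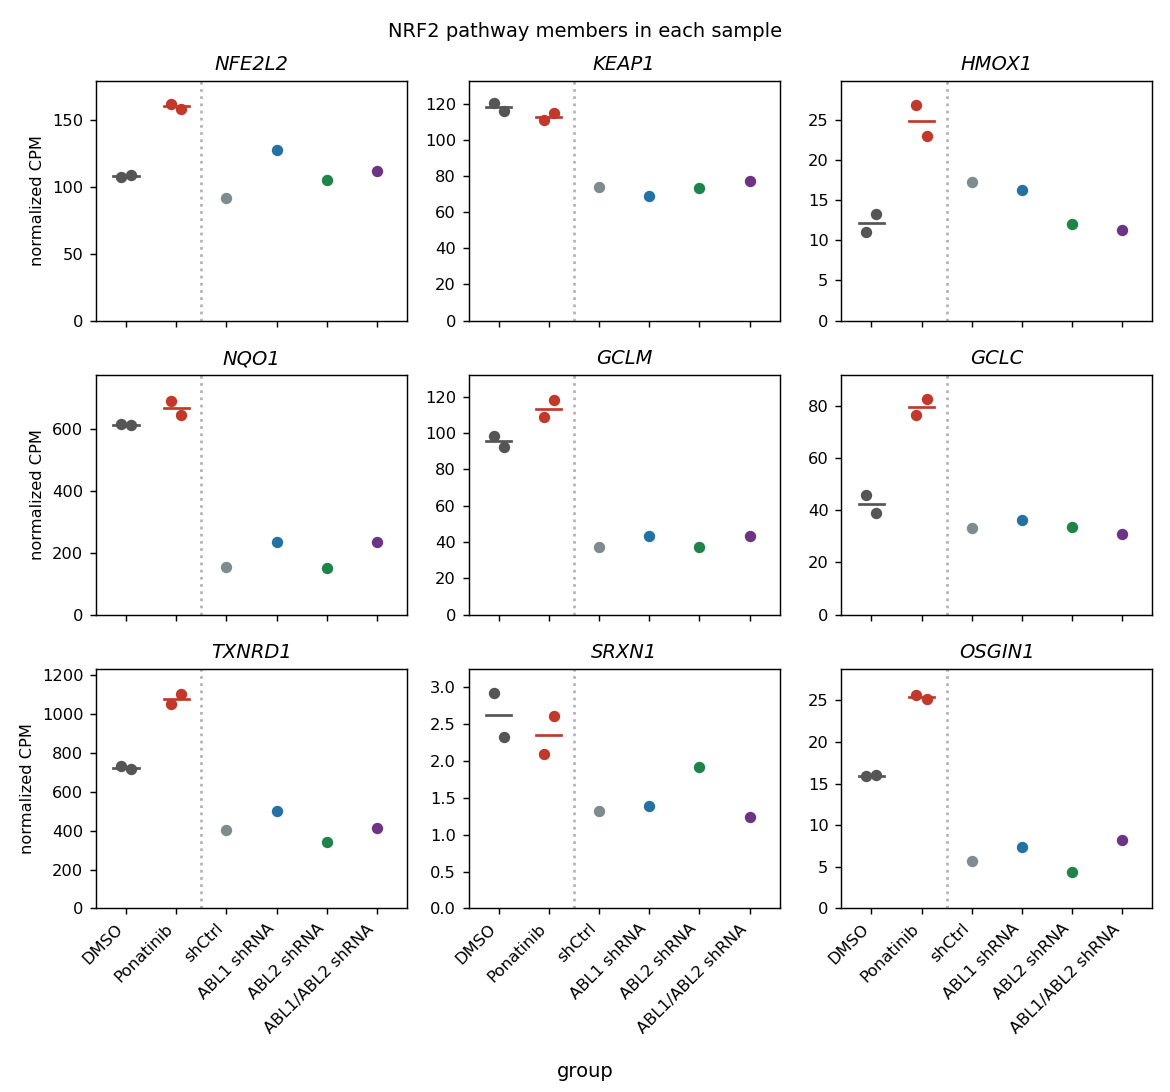
Level of each of the 9 NRF2 pathway genes in each of the 8 samples. The y axis is normalized CPM on a linear scale that starts at 0 and differs between panels, each point is 1 sample, the horizontal line is the mean of 2 samples, and the dotted line separates the drug experiment from the shRNA experiment, which were normalized separately. Both Ponatinib points lie above both DMSO points for HMOX1, GCLC, OSGIN1, TXNRD1, NFE2L2, GCLM and NQO1, below them for KEAP1, and among them for SRXN1. NQO1 and KEAP1 did not pass the test, and the share of all genes whose groups did not overlap is not given here.

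The mRNA of NRF2 itself rose while that of its sensor did not pass the test. NFE2L2 (chr2:177218667-177392756, minus strand, hg38) stood at 108 and 109 normalized CPM in the DMSO samples and at 162 and 158 after Ponatinib. The groups did not overlap, and the repeats lay within a few CPM of each other. The log2 fold change was 0.57 (SE 0.06, adjusted p = 7.1e-06, edgeR). KEAP1 (chr19:10486125-10503558, minus strand) stood at 120 and 116 in DMSO and at 111 and 115 after Ponatinib. The groups came close without overlapping, and the log2 fold change of -0.07 had a 95% interval from -0.21 to 0.07 (adjusted p = 0.46, edgeR). The ratio of NFE2L2 to KEAP1 counts within a sample, chosen after the values were seen, was 0.917 ± 0.028 in DMSO and 1.42 ± 0.062 after Ponatinib (SD, n = 2 each).

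Glutathione synthesis begins with glutamate-cysteine ligase, made of the catalytic subunit GCLC and the modifier subunit GCLM. Both subunits rose, GCLC by the larger amount. GCLC (chr6:53497341-53616970, minus strand) stood at 45.8 and 38.9 normalized CPM in DMSO and at 76.2 and 82.4 after Ponatinib, a log2 fold change of 0.90 (SE 0.09, adjusted p = 1.8e-06, edgeR). The 2 groups were far apart against the distance between repeats. GCLM (chr1:93885199-93909456, minus strand) stood at 98.2 and 92.3 in DMSO and at 109 and 118 after Ponatinib, a log2 fold change of 0.25 (SE 0.07, adjusted p = 0.0152, edgeR). These groups did not overlap either, but the gap between them was about as wide as the gap within Ponatinib. The call of GCLM was lost without DMSO repeat 1 (adjusted p = 0.0689), without DMSO repeat 2 (adjusted p = 0.219) and with DESeq2's test (adjusted p = 0.092), while its log2 fold change stayed between 0.18 and 0.32 under all 8 alternatives run. The ratio of GCLC to GCLM counts was 0.466 and 0.422 in the DMSO samples and 0.702 and 0.698 in the Ponatinib samples. This ratio was not among the planned results and restates the 2 fold changes above. The difference of 0.256 exceeded the spread of the repeats. Its exact permutation p of 0.333 (two-sided), given also by the NFE2L2 to KEAP1 ratio, is the smallest that 2 against 2 samples allow. That test could therefore not decide.

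**Figure D2:**
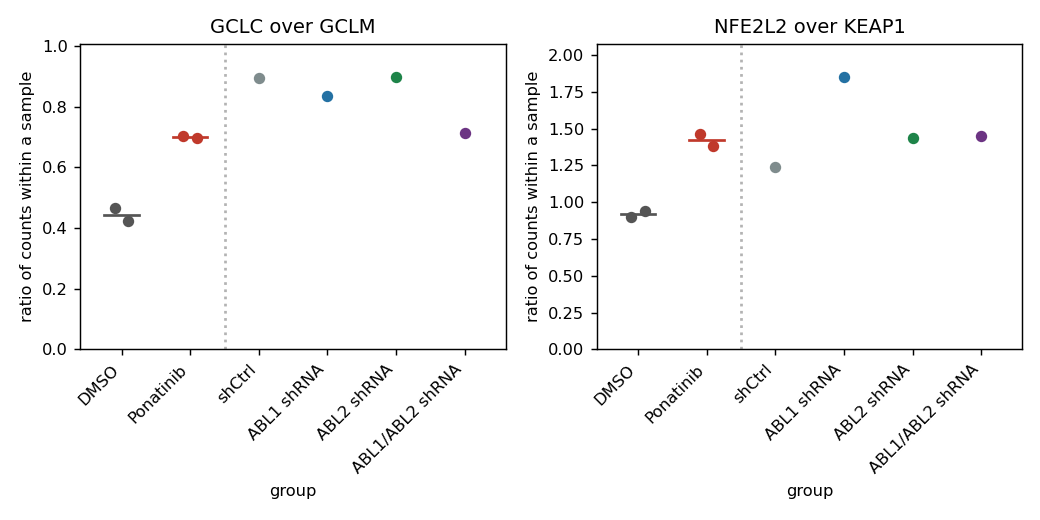
Ratios of counts within each sample, GCLC over GCLM on the left and NFE2L2 over KEAP1 on the right. The y axes have no unit and start at 0, each point is 1 sample, lines are means of 2 samples, and the dotted line separates the experiments. Both Ponatinib samples lie above both DMSO samples in each panel, and among the shRNA samples the ABL1 shRNA sample has the highest NFE2L2 to KEAP1 ratio, 1.85.

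HMOX1 encodes heme oxygenase 1, which breaks heme down to biliverdin, iron and carbon monoxide. HMOX1 (chr22:35380361-35394214, plus strand) stood at 11.1 and 13.3 normalized CPM in DMSO and at 26.8 and 22.9 after Ponatinib. Both treated samples were well above both controls, with a fold change of 2.07 (log2 1.05, SE 0.13, adjusted p = 3.1e-05, edgeR). The counts behind these levels were modest, from 125 to 282 in a sample. Over the alternatives run its log2 fold change ranged from 0.91, when DMSO repeat 1 was left out, to 1.18, when DMSO repeat 2 was left out. OSGIN1, an oxidative stress response gene that restrains growth, lies on the plus strand at chr16:83931311-83966332. It stood at 15.9 and 16.0 in DMSO and at 25.6 and 25.1 after Ponatinib. The repeats were nearly level within each group, and the log2 fold change was 0.67 (SE 0.11, adjusted p = 0.00034, edgeR).

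The remaining 3 targets reduce proteins or quinones. TXNRD1 (chr12:104215779-104350307, plus strand) recharges thioredoxin with electrons from NADPH. It stood at 733 and 716 normalized CPM in DMSO and at 1054 and 1103 after Ponatinib, with a log2 fold change of 0.57 (SE 0.06, adjusted p = 2.2e-06, edgeR). The distance between repeats was small in both groups. NQO1 (chr16:69706996-69726668, minus strand), often used as a marker of NRF2 activity, stood at 617 and 613 in DMSO and at 691 and 646 after Ponatinib. Both treated samples were higher, yet by little against the distance between them, and the log2 fold change of 0.12 (95% interval -0.0044 to 0.25) did not pass the test (adjusted p = 0.136, edgeR). The log2 fold change was 0.17 without Ponatinib repeat 2 and 0.08 without Ponatinib repeat 1, each resting on 1 Ponatinib sample. SRXN1 (chr20:646615-653200, minus strand), which repairs overoxidized peroxiredoxins, stood at 2.92 and 2.33 in DMSO and at 2.09 and 2.60 after Ponatinib. The groups overlapped, and at this depth the 95% interval of the log2 fold change ran from -0.81 to 0.43 (adjusted p = 0.664, edgeR).

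Genes of the rest of the pathway were called in both directions. Of 50 other genes, not counting the heat shock and metal response list given apart below, 49 were tested. Of these, 17 rose, 8 fell and 24 were not called, with a median log2 fold change of 0.12. GPX2 was left out for low counts. Among the 9 sensors and partners, 3 rose and 4 fell. MAFF, a small MAF protein, fell from 66.7 and 62.4 normalized CPM in DMSO to 9.70 and 8.59 after Ponatinib (log2 fold change -2.81, SE 0.11, adjusted p = 8.1e-11, edgeR), the largest change in any of the lists. The other partners that were called, named after their values were seen, were the small MAF genes MAFG (-0.31) and MAFK (-0.44) and the repressor BACH1 (-0.48), which fell on the log2 scale, and NFE2L1 (0.45), a relative of NRF2, BTRC (0.35), a ubiquitin ligase adaptor, and SQSTM1 (0.19), which binds KEAP1, which rose. The ratio of NFE2L2 to BACH1 counts, also chosen after the values were seen, went from 1.47 and 1.56 in DMSO to 3.4 and 2.84 after Ponatinib (exact permutation p = 0.333, the smallest 2 against 2 samples allow).

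Of 8 glutathione genes tested, 2 rose and 2 fell. SLC7A11, the cystine importer that feeds glutathione synthesis, stood at 398 and 413 normalized CPM in DMSO and at 730 and 890 after Ponatinib (log2 fold change 1.00, SE 0.08, adjusted p = 2.1e-07, edgeR). Glutathione reductase GSR also rose, by 0.52 on the log2 scale. GSTO1 and GSS, named after their values were seen, fell by 0.39 and 0.19. Of the 6 thioredoxin and peroxiredoxin genes, SESN2, a stress-induced sestrin, rose from 16.7 and 15.3 to 82.3 and 84.1 (log2 fold change 2.37, SE 0.09), and TXNIP, a thioredoxin inhibitor, rose from 51.1 and 43.5 to 130 and 129 (log2 fold change 1.45, SE 0.08). The glutaredoxin GLRX fell by 0.57 on the log2 scale, and TXN, PRDX1 and PRDX6 did not pass the test. In the heme and iron list none of 6 genes rose and 1 fell, SLC48A1, a heme transporter, by 0.46 on the log2 scale, which is named after its value was seen. The ferritin genes FTH1 and FTL, which have many pseudogene copies, had log2 fold changes of 0.04 and 0.03 and were not called. 

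Genes that supply NADPH rose in 4 of 6 cases and fell in none, led by IDH1, cytosolic isocitrate dehydrogenase, which went from 62.3 and 71.3 normalized CPM to 162 and 150 (log2 fold change 1.23, SE 0.08, adjusted p = 1.4e-08, edgeR). The malic enzyme ME1 rose by 0.54 on the log2 scale. In the detoxification and export list 6 of 14 genes rose and none fell. The aldo-keto reductases AKR1C2, AKR1C1 and AKR1C3 had log2 fold changes of 1.42, 1.32 and 0.74. These genes are similar copies, AKR1C1 and AKR1C2 the most alike, so the share of each is uncertain. UGDH, which makes UDP-glucuronate, and the epoxide hydrolase EPHX1 rose by 0.73 and 0.64. Heat shock and metal response genes went mostly the other way, and 7 of 8 fell, beside 15.7% of all genes tested. SLC30A1, the zinc exporter, was the exception, at 43.7 and 47.1 in DMSO and 102 and 113 after Ponatinib (log2 fold change 1.24, SE 0.08), while the metallothionein MT2A fell by 0.68 on the log2 scale.

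**Figure D3:**
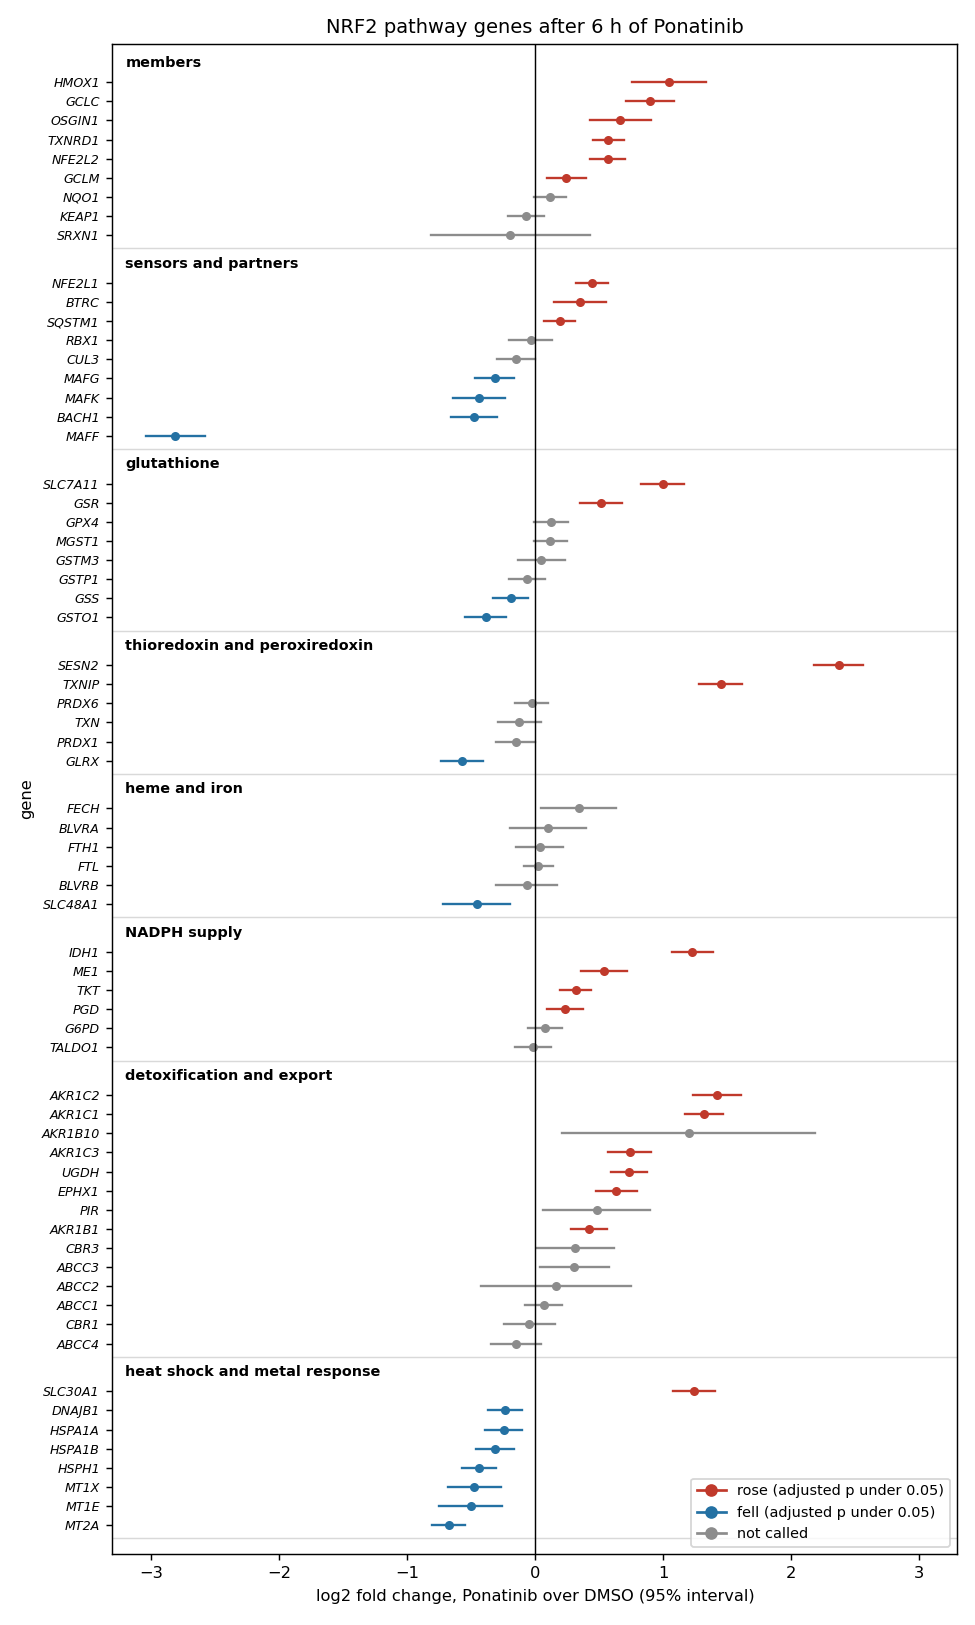
Log2 fold change of Ponatinib over DMSO for the 9 members, the 49 other pathway genes tested and the 8 heat shock and metal response genes, by list. Points are the edgeR estimates from 2 against 2 samples, bars are 95% intervals, red marks genes that rose and blue genes that fell at an adjusted p under 0.05, and gray marks genes not called. Red points make up 6 of 9 members, 6 of 14 detoxification genes and 4 of 6 NADPH genes, and 7 of 8 heat shock and metal response genes are blue.

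In the shRNA experiment each group was 1 sample and no test was made, and the 95% intervals given below cover counting error only. All 3 knockdowns were set against the same shCtrl sample and share its error. None of the 9 genes differed from shCtrl by more than 2-fold in any knockdown, beside 8.90% of all genes compared in ABL1 shRNA, 7.70% in ABL2 shRNA and 7.72% in ABL1/ABL2 shRNA. At 1.5-fold, 1 of the 9 passed in ABL1 shRNA, none in ABL2 shRNA and 2 in ABL1/ABL2 shRNA, beside 23.8%, 19.9% and 21.3% of all genes compared. The targeted genes were lower, ABL1 at a ratio to shCtrl of 0.385 in ABL1 shRNA and 0.579 in the double knockdown, and ABL2 at 0.397 in ABL2 shRNA and 0.628 in the double knockdown. Each target was thus less reduced in the double knockdown than in its single knockdown. In the drug experiment ABL2 mRNA also fell after Ponatinib (log2 fold change -1.02, adjusted p = 8.6e-08, edgeR). ABL1 mRNA rose there (log2 fold change 0.19, adjusted p = 0.0287, edgeR). The median log2 ratio of the 9 genes was 0.23 in ABL1 shRNA, -0.0088 in ABL2 shRNA and 0.07 in ABL1/ABL2 shRNA, beside medians over all genes of 0.01, -0.0012 and 0.0072.

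**Figure D4:**
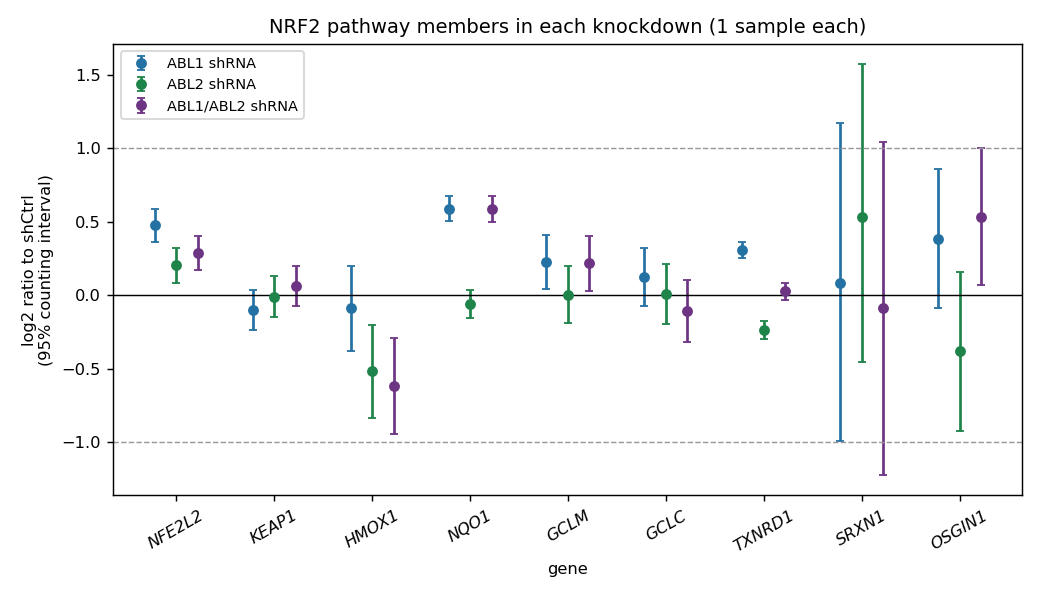
Log2 ratio of each of the 9 genes to shCtrl in ABL1 shRNA, ABL2 shRNA and ABL1/ABL2 shRNA, 1 sample each. Bars are 95% counting intervals, and dashed lines mark 2-fold. All points lie within 2-fold, NQO1 lies at 0.59 in both samples that carry ABL1 shRNA and at -0.06 in ABL2 shRNA, and the bars of SRXN1 are the widest.

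NFE2L2 was lowest in shCtrl, at 91.4 normalized CPM, and stood at 127 in ABL1 shRNA, 105 in ABL2 shRNA and 112 in the double knockdown. All 3 knockdowns were above the control, at ratios of 1.39 (1.29 to 1.51), 1.15 (1.06 to 1.25) and 1.22 (1.13 to 1.33). KEAP1 stayed close to its control level of 73.7, at 68.7, 73.3 and 77.2, and each counting interval included a ratio of 1. BACH1, the repressor, was lower than its shCtrl level of 152 in each knockdown, at 104, 119 and 90.2. The NFE2L2 to BACH1 ratio was accordingly lowest in shCtrl, at 0.603, and stood at 1.22, 0.881 and 1.24 in the knockdowns. The BACH1 levels and this ratio rest on the same shCtrl sample.

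NQO1 separated the samples by the ABL1 shRNA. It stood at 155 normalized CPM in shCtrl and 149 in ABL2 shRNA, and at 234 in both ABL1 shRNA and ABL1/ABL2 shRNA, a ratio to shCtrl of 1.5 (1.42 to 1.60) in each. GCLM showed the same order on a smaller scale, at 37.1 and 37.2 without ABL1 shRNA and at 43.4 and 43.1 with it. OSGIN1 stood at 5.71 in shCtrl and 4.38 in ABL2 shRNA, and at 7.44 in ABL1 shRNA and 8.26 in the double knockdown, on 55 to 100 counts. NFE2L2 and TXNRD1 were also higher in both samples with ABL1 shRNA than in both without, so that 5 of the 9 genes had this order and none had the reverse. This order was looked for after the values were seen. Of all 16329 genes considered, 3861 (23.6%) had it and 3736 had the reverse. Among the cell markers, KRT18 had the order of the 5 genes too, with 229 and 144 normalized CPM without ABL1 shRNA and 312 and 273 with it. CD44 did as well, with 490 and 492 without and 635 and 567 with it. CDH1, an epithelial cadherin, had 4 and 2 counts without ABL1 shRNA and 23 and 20 with it. VIM and PECAM1 did not have this order. ERBB2 had the reverse, with 65.1 and 65.8 normalized CPM without ABL1 shRNA and 59.7 and 64.8 with it. The part of the markers in the order of the 5 genes was not tested. For TXNRD1 the margin was narrow, with 404 in shCtrl and 412 in the double knockdown, next to 500.5 in ABL1 shRNA and 343 in ABL2 shRNA. Its ratio to shCtrl was 1.24 (1.19 to 1.29) in ABL1 shRNA, 0.849 (0.814 to 0.885) in ABL2 shRNA and 1.02 (0.979 to 1.06) in the double knockdown.

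HMOX1 was lower in the samples with ABL2 shRNA. It stood at 17.2 normalized CPM in shCtrl and 16.2 in ABL1 shRNA, and at 12.0 in ABL2 shRNA and 11.2 in the double knockdown. Both samples with ABL2 shRNA were lower than both without, at ratios to shCtrl of 0.698 (0.561 to 0.868) and 0.652 (0.520 to 0.816), on 136 to 209 counts. No other of the 9 genes had this order, which was also looked for after the values were seen and which 16.1% of all 16329 genes had. After Ponatinib, in the other experiment, the fold change of HMOX1 over DMSO was 2.07. GCLC stood at 33.2 in shCtrl, 36.2 in ABL1 shRNA, 33.5 in ABL2 shRNA and 30.8 in the double knockdown, with intervals that included a ratio of 1 in each. SRXN1 had 15 to 24 counts, and its intervals reached from 0.428 to 2.97, so that a change under 2-fold was not detectable at this depth.

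Of the other pathway genes, 2 were up and 1 was down by more than 2-fold among 49 compared in ABL1 shRNA. The counts were 0 up and 1 down among 48 in ABL2 shRNA, and 1 up and 1 down among 49 in the double knockdown. Of all genes compared, 8.90%, 7.70% and 7.72% passed 2-fold in these 3 comparisons, so such small counts say little about the pathway. In ABL1 shRNA, SLC7A11 had a ratio to shCtrl of 2.03 (1.89 to 2.18) and FTL one of 0.470 (0.458 to 0.482), out of 49 genes compared. AKR1B10 had a ratio of 2.20 there and 2.35 in the double knockdown, on 20 counts against 8, with intervals that included 1. TXNIP had a ratio of 0.451 (0.431 to 0.472) in ABL2 shRNA and 0.474 (0.453 to 0.496) in the double knockdown, and in the drug experiment its fold change was 2.73. SLC7A11 had the order of NQO1, with 94.4 and 88.2 normalized CPM without ABL1 shRNA and 192 and 140 with it. Other list genes had the same order or the reverse. FTL had the reverse, with 1458 and 1174 without ABL1 shRNA and 685 and 864 with it. These orders were looked for after the values were seen.

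The genes whose pattern was most like that of HMOX1 over all 8 samples, each experiment centered on its own mean, were FAM220A (Pearson r = 0.994), NFKBIA (0.990) and FBXO32 (0.978), out of 10234 genes. For GCLM they were GRK3 (0.982), DZIP3 (0.981) and ZFAND2A (0.975). These values describe 8 samples from 2 experiments, in which samples of an experiment share their preparation, and they carry no test.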

How the data were processed

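Total RNA of 8 samples of LM2 cells was sequenced. The authors aligned the reads to hg38 with TopHat and deposited raw counts of reads per gene from HTSeq 0.6.0. The annotation version and strand setting are not given in the sources used here. The summary lines that end the shRNA files (no feature, 9.48% to 9.90% of reads; ambiguous, 6.12% to 6.32%) were left out. Gene IDs were matched to symbols for 54836 of 58688. Ponatinib was compared with DMSO over the 4 drug samples by edgeR 4.0.16 (R 4.3.3; TMM, filterByExpr, quasi-likelihood test, Benjamini-Hochberg adjustment over all genes tested), where rose and fell mean an adjusted p under 0.05. Folds and intervals are those of that fit. Knockdowns, 1 sample a group, were set against shCtrl as ratios of TMM-normalized CPM with exact binomial 95% intervals, over genes with at least 10 counts in the higher sample. Reads without molecular identifiers are not independent molecules, so these intervals and the 3-count floor cover counting error only. Repeats may be technical, in which case p-values measure only that spread. The deviations of samples with the same repeat number had r = -0.020, so repeats were not paired. The genes and lists were chosen with earlier results of these data known. Named were the 9 genes, ABL1 and ABL2, up to 15 called list genes with the largest changes after Ponatinib, up to 6 list genes past 2-fold in each knockdown, and the 3 genes most like HMOX1 and GCLM. Any others are said in the text to be named after their values were seen, apart from cell markers and genes given as not called. The fit was also run on simulated data, whose outcome is not given here and is not used as support. Alternatives were DESeq2's size factors and Wald test, no filter on low counts, a replicate block, each sample left out, plain CPM and a fold of 1.5.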

Additional observations from a re-analysis of the deposited data

How the results depend on the processing

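In the drug comparison, 6 of the 9 genes were called with DESeq2's size factors, without a filter on low counts and with the replicate block, 5 with DESeq2's Wald test (GCLM lost, adjusted p = 0.092) and 5 to 7 when 1 sample was left out, the lone sample then being taken to vary like the other group. NFE2L2, HMOX1, GCLC, TXNRD1 and OSGIN1 were called under all 8 alternatives. Over all genes 4917 were called, with 4984 under the replicate block, 2568 by DESeq2's Wald test and 2800 to 5744 with 1 sample left out (2800 without DMSO repeat 1 and 3242 without DMSO repeat 2). By the rule of fold over 2 and unadjusted P under 0.05, 878 genes, 1 of the 9 and 7 of the other pathway genes were called. The alternatives for the other pathway genes were added after seeing the data, and of the 25 called there were 21 by DESeq2's Wald test, 25 with the replicate block and 20 to 32 with 1 sample left out. The pairing by repeat number changed no call of the 9 genes. With a fold of 1.5 in place of 2, 1 of the 9 genes passed in ABL1 shRNA, 0 in ABL2 shRNA and 2 in ABL1/ABL2 shRNA, where 0 had passed, beside 23.8%, 19.9% and 21.3% of all genes compared. The scaling alternatives moved the median of all genes by at most 0.04 on the log2 scale. The log2 ratio of KEAP1 in ABL2 shRNA went from -0.0088 to 0.03 with plain CPM, inside its counting interval, and no other of the 9 genes changed sign under the alternatives run. Depth limits SRXN1 most.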

Other observations

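The levels in the controls of the drug experiment and of the shRNA experiment were normalized separately and are given side by side without a comparison. NQO1 stood at 615 ± 3.16 normalized CPM in DMSO (SD, n = 2) and at 155 in shCtrl, GCLM at 95.3 ± 4.23 and 37.1, OSGIN1 at 16.0 ± 0.049 and 5.71, and SLC7A11 at 398 and 413 in the DMSO samples and 94.4 in shCtrl. HMOX1 stood at 12.2 ± 1.56 and 17.2, TXNRD1 at 724 ± 12.1 and 404, KEAP1 at 118 ± 2.86 and 73.7, NFE2L2 at 108 ± 0.742 and 91.4, GCLC at 42.3 ± 4.86 and 33.2, and SRXN1 at 2.63 ± 0.418 and 1.32. BACH1 stood at 73.2 and 69.9 in the DMSO samples and at 152 in shCtrl, and TXNIP at 51.1 and 43.5 and at 502. Infection, selection, preparation and time cannot be told apart here.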
